A study of Mus musculus with 6 samples.

Results

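The genes described are 10 smooth muscle contractile genes, *Acta2*, *Actg2*, *Tagln*, *Cnn1*, *Cnn2*, *Myl9*, *Tpm1*, *Tpm2*, *Cald1* and *Myh11*, chosen by name and not by their values from the 17428 genes of the deposited table. They were measured in EpH4, a non-tumour mouse mammary epithelial cell line, by RNA sequencing. E cells were untreated, M cells had received TGFβ1 for 7 days, and RE cells had received TGFβ1 for 7 days and were then kept in normal medium for 4 days. Each group had 2 libraries, described as biological replicates of the same line, and all groups were grown with serum and insulin.

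Smooth muscle shortens when myosin motors, switched on by phosphorylation of their regulatory light chain, pull on filaments of smooth muscle α- and γ-actin. Tropomyosin, caldesmon and calponin lie along those filaments and restrain the motors until the cell is stimulated, and transgelin bundles the filaments. Outside muscle, myoepithelial cells of the mammary gland and fibroblasts activated by TGFβ carry part of this set, which is driven by serum response factor (SRF) and its coactivators at CArG boxes, the DNA element that SRF binds.

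Of the 10 genes, 7 matched a RefSeq promoter table (build GRCm38.p6), which was not the build the authors mapped to. The 250 bases before the transcription start are printed 5′ to 3′ on the gene's strand for *Acta2*, *Myl9* and *Cnn2*, which rose in M cells and hold CArG-type boxes, and for *Cnn1*, which did not rise in M cells. Capitals mark CArG boxes, CArG boxes with 1 G or C in the core of 6 A or T bases, and the TEAD element CATTCC read on the opposite strand (GGAATG). The windows are chr19:34255374-34255623, minus strand (*Acta2*), chr2:156775214-156775463, plus strand (*Myl9*), chr10:79988350-79988599, plus strand (*Cnn2*), and chr9:22099003-22099252, plus strand (*Cnn1*).
Acta2: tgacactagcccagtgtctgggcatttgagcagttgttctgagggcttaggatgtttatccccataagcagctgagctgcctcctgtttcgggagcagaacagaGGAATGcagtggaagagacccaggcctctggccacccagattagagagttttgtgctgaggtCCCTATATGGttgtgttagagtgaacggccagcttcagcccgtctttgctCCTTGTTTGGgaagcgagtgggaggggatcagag
Myl9: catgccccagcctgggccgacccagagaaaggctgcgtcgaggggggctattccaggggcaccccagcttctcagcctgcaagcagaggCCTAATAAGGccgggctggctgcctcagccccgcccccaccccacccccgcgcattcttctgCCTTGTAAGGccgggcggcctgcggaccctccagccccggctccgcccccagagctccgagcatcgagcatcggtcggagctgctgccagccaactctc
Cnn2: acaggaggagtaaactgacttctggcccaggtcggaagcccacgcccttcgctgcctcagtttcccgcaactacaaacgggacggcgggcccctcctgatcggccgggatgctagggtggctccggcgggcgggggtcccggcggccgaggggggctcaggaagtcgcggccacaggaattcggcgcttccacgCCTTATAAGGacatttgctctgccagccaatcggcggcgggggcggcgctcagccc
Cnn1: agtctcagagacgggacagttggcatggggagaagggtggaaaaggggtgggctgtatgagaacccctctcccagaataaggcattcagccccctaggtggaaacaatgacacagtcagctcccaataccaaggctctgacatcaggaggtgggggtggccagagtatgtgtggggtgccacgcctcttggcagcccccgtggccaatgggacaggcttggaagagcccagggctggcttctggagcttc

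*Myl9* held the CArG box CCTAATAAGG at 161 to 152 bases before its start, and *Cnn2* held CCTTATAAGG at 56 to 47 bases before its start. *Acta2* held 2 boxes with a G or C in the core, CCCTATATGG at 84 to 75 bases and CCTTGTTTGG at 34 to 25 bases before its start, and *Myl9* held a further one, CCTTGTAAGG, at 99 to 90 bases. Both strands were searched, and no hits overlapped. A CArG box was found in 2 of the 8 promoters of the 7 matched genes and in 1.47% of all 32851 promoters, and the box with 1 G or C was found in 2 of 8 and in 7.24%. The TEAD element was found in 3 of 8, those of *Acta2*, *Tpm1* and 1 of the *Cald1* promoters, and in 12.6% of all. The SMAD element CAGACA was found in 2 of 8, *Acta2* and *Cald1*, and in 17.1% of all. The *Cnn1* window held none of these elements. *Tpm1* and *Cald1*, which also rose in M cells, and *Tpm2* held no CArG-type box in their windows, which are not printed. A match describes the sequence and is not evidence of binding. *Actg2*, *Tagln* and *Myh11* were not matched.

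The deposited values were read as coverage, a sum of the sequenced bases that fell on a gene, because of their size and of the many low values that are multiples of 50. They are given here as a normalized share of the library in ppm. If reads were of 50 bases, on which each value in reads' worth rests, the depth ran from 35782513 to 47928557 reads' worth per library. A gene was called when its log2 fold change was above 1 either way with an adjusted p below 0.01 by limma. All 10 genes passed the filter on low values (at least 500 bases in at least 2 libraries), *Cnn1* through its RE libraries alone, as did 13893 genes in all. Replicates differed on the log2 scale with an SD over genes of 0.558 in E, 0.317 in M and 0.309 in RE, so that values of E cells carry the widest spread. *Pmepa1*, a TGFβ target, measured 178 and 221 ppm in E, 546 and 542 ppm in M, and 163 and 176 ppm in RE cells, highest in the libraries labelled as treated. In bulk RNA a change in the number of cells that express a gene and a change per cell cannot be told apart.

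**Figure D1:**
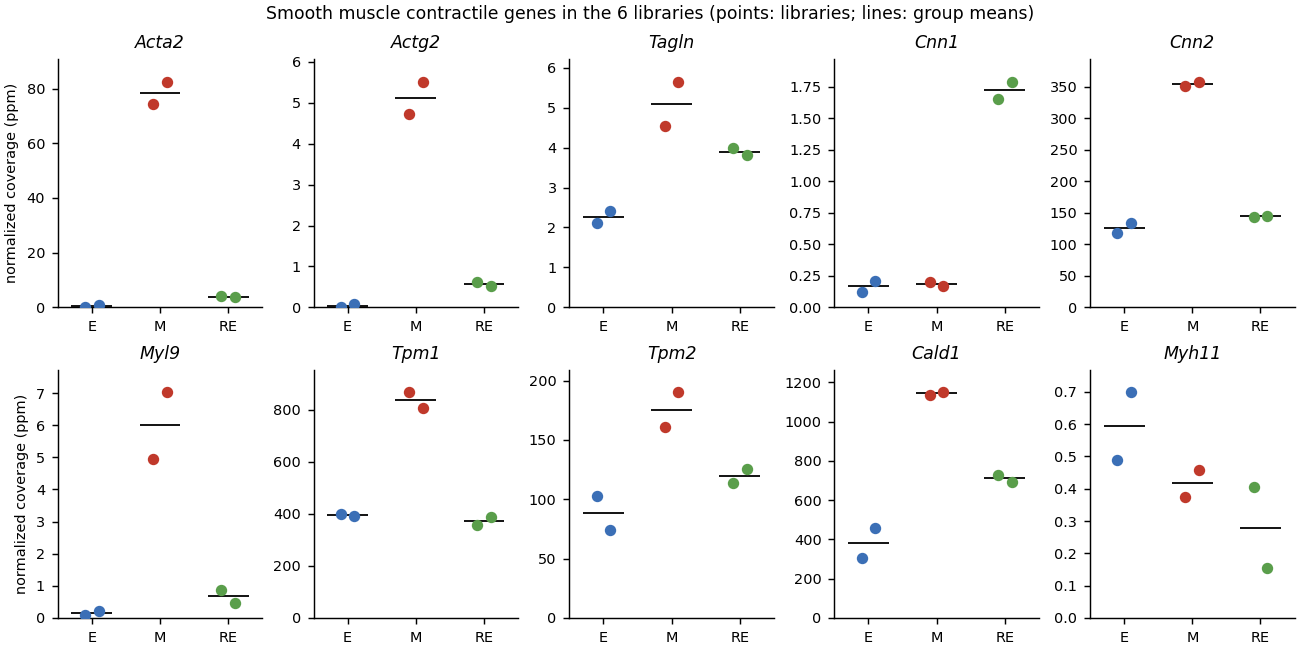
Normalized coverage (ppm, linear axes from 0, a scale for each gene) of the 10 contractile genes in the E, M and RE groups. Points are libraries and lines are group means. *Acta2* rises from a mean of 0.471 ppm in E to 78.5 ppm in M and falls to 3.94 ppm in RE, whereas *Cnn1* is high only in RE (1.72 ppm).

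Most of the contractile genes were higher after TGFβ1. In E vs. M, 7 of the 10 were called higher and 0 lower by limma, where 8.14% of all genes tested were called higher, 8.53% lower and 16.7% either way. At an unadjusted p below 0.05, 8 were higher and 0 lower. That cut is much looser, and the share of all genes that pass it is not given here, so the percentages above do not apply to it. The median log2 fold change of the 10 was 1.32, and that of all genes was -0.02. The M libraries were both higher than either E library for 8 of the 10 and for 34.5% of all genes. The exceptions were *Cnn1*, whose groups overlapped, and *Myh11*, whose M libraries were both lower, as were those of 36.5% of all genes.

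The actins and the myosin light chain started near the floor in E cells. *Acta2*, smooth muscle α-actin, measured 0.253 and 0.689 ppm in the E libraries, 74.5 and 82.5 ppm in the M libraries, and 4.04 and 3.84 ppm in the RE libraries. The 3 groups did not overlap, with E lowest, M highest and RE between them. The mean in M was 167-fold that in E, with a log2 fold change of 7.22 (SE 0.35, adjusted p = 2.34e-05 by limma). The E values rest on 10.9 and 26.1 reads' worth of coverage.

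*Actg2*, the smooth muscle γ-actin of gut and bladder, was listed at 0 and 0.0791 ppm in E, at 4.72 and 5.52 ppm in M, and at 0.623 and 0.526 ppm in RE cells. E stood at or under the floor of 3 reads' worth per library, so the mean in M was at least 68.9-fold higher than in E. The fitted log2 fold change was 5.28 (SE 0.35, adjusted p = 6.77e-05 by limma) and depends on the constant added before taking logs.

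*Myl9*, the regulatory light chain of smooth muscle and non-muscle myosin, measured 0.0771 and 0.223 ppm in E, 4.96 and 7.03 ppm in M, and 0.872 and 0.469 ppm in RE cells. It followed the order of the actins, E lowest and M highest, again without overlap. The mean in M was 39.9-fold that in E (log2 fold change 4.65, SE 0.41, adjusted p = 0.000211 by limma), over an E level of 3.3 and 8.5 reads' worth.

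The filament-binding genes were already abundant in E cells and rose by less. *Cald1*, caldesmon, measured 303 and 457 ppm in E, 1138 and 1150 ppm in M, and 730 and 693 ppm in RE cells, with RE between the other groups. *Cnn2*, the calponin found widely outside smooth muscle, measured 118 and 134 ppm in E, 351 and 358 ppm in M, and 143 and 145 ppm in RE cells. Both M libraries were far above the other 4, and RE was just above E. The M mean was 3.01-fold the E mean for *Cald1* (log2 fold change 1.62, SE 0.20, adjusted p = 0.000906 by limma) and 2.81-fold for *Cnn2* (1.49, SE 0.12, adjusted p = 0.000161 by limma).

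The tropomyosins wind along actin filaments and are made by many cell types in several splice forms, which coverage per gene cannot separate. *Tpm1* measured 398 and 391 ppm in E, 868 and 809 ppm in M, and 357 and 389 ppm in RE cells. The RE libraries were both just below the E libraries, and M stood alone. *Tpm2* measured 103 and 74.3 ppm in E, 161 and 190 ppm in M, and 114 and 126 ppm in RE cells, again with M highest and with its E libraries farther apart. *Tpm1* was called in E vs. M (log2 fold change 1.09, SE 0.13, adjusted p = 0.000749 by limma). *Tpm2* passed the p but not the fold threshold (0.997, SE 0.18, adjusted p = 0.00494 by limma), with a ratio of means of 1.98.

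*Tagln*, transgelin or SM22α, stayed low, at 2.10 and 2.41 ppm in E, 4.53 and 5.65 ppm in M, and 3.99 and 3.81 ppm in RE cells. RE lay between E and M and nearer to M. The M mean was 2.26-fold the E mean (log2 fold change 1.14, SE 0.21, adjusted p = 0.00483 by limma), and this adjusted p was the highest among the 7 called.

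The remaining genes did not follow this pattern. *Cnn1*, the calponin typical of differentiated smooth muscle, measured 0.122 and 0.210 ppm in E, 0.198 and 0.170 ppm in M, and 1.65 and 1.79 ppm in RE cells. E and M overlapped at 5.2 to 8.4 reads' worth, and both RE libraries stood above them at 78.1 and 78.6. *Myh11*, the smooth muscle myosin heavy chain and the most restricted of the set, measured 0.488 and 0.699 ppm in E, 0.376 and 0.458 ppm in M, and 0.405 and 0.153 ppm in RE cells. It was low in every library (6.7 to 26.5 reads' worth) and was called in no comparison. Its log2 fold change was -0.41 in E vs. M (SE 0.41, adjusted p = 0.45 by limma), -0.53 in M vs. RE (adjusted p = 0.374) and, for E vs. RE, -0.94 (adjusted p = 0.123). Its RE libraries differed from each other by 0.996 on the log2 scale.

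With 1 library left out, the spread of a group left with a single library was taken from the other groups. Over all genes, calls fell in every comparison without an M or RE library and rose without an E library. Without the first or the second M library, the E vs. M calls of *Tagln*, *Tpm1* and *Cald1* were lost. Their log2 fold changes then were 1.31 and 0.995, 1.05 and 1.15, and 1.64 and 1.63. Without the first or the second RE library *Tagln* was also lost (1.14 and 1.139), and without the first E library *Tpm2* was called at a log2 fold change of 1.23. *Acta2*, *Actg2*, *Cnn2* and *Myl9* were called in every alternative in which they were tested, although with 1 ppm added before taking logs, in place of 0.1, the fitted log2 fold changes of *Acta2*, *Actg2* and *Myl9* were 5.77, 2.56 and 2.59.

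**Figure D2:**
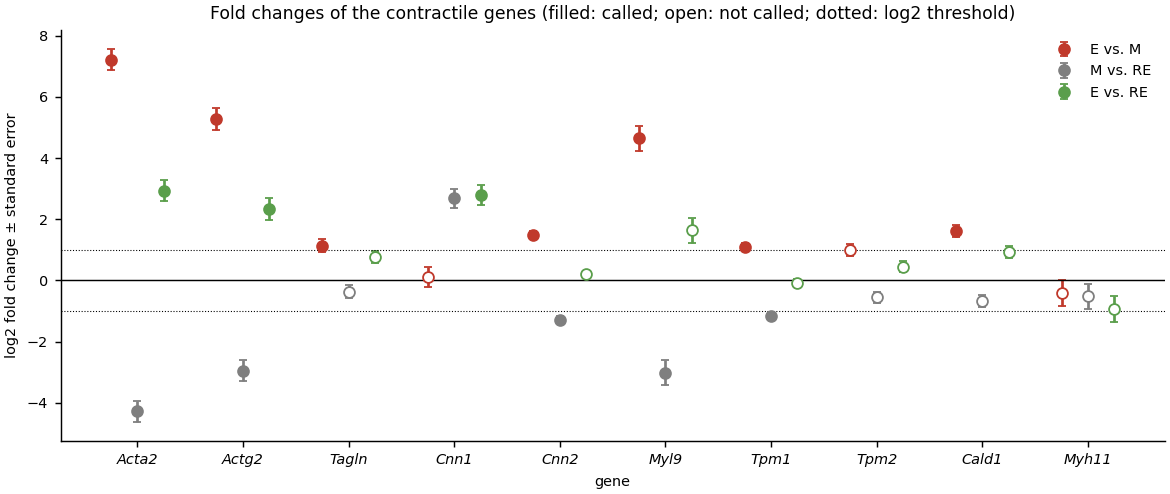
Log2 fold changes of the 10 genes (points, with bars of 1 standard error) for E vs. M, M vs. RE and E vs. RE. Filled points were called and open points were not, and dotted lines mark the log2 threshold of 1. *Acta2*, *Actg2* and *Myl9* lie above 4.6 in E vs. M, and *Cnn1* is near 0 there and near 2.7 to 2.8 in both comparisons with RE.

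After withdrawal of TGFβ1, the genes with the largest rises were lower again. In M vs. RE, 5 of the 10 were called lower and 1 higher by limma, where 4.61% of all genes were called lower, 8.08% higher and 12.7% either way. The median log2 fold change was -0.93 for the 10 and -0.01 for all genes. In 8 of the 10 both RE libraries were below both M libraries, as were 39.6% of all genes. *Cnn1* was the 1 gene with both RE libraries above, as were 38.8% of all genes, and the groups of *Myh11* overlapped. *Acta2* fell by 4.28 on the log2 scale (SE 0.35, adjusted p = 0.000164 by limma), from an M mean 19.9-fold that in RE. *Myl9* fell by 3.01 (adjusted p = 0.00175) and *Actg2* by 2.95 (adjusted p = 0.000942), and the M means were 8.94-fold and 8.91-fold those in RE. *Cnn2* fell by 1.30 (adjusted p = 0.000322) and *Tpm1* by 1.17 (adjusted p = 0.000655).

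The genes that rose in M and were not called in M vs. RE were *Cald1*, with a log2 fold change of -0.69 (adjusted p = 0.0375 by limma), and *Tagln*, with -0.37 (adjusted p = 0.222). *Tpm2* changed by -0.55 (adjusted p = 0.0577). The gene called higher was *Cnn1*, by 2.68 on the log2 scale (SE 0.32, adjusted p = 0.000931 by limma), and its RE mean was 9.33-fold its M mean. Most calls in this comparison were lost when an M or RE library was left out, where calls over all genes fell too. *Acta2* was called each time. Without the first and the second M library *Actg2* was at -3.085 and -2.864 on the log2 scale, and *Myl9* at -3.283 and -2.789. *Tpm1* was at -1.137 and -1.24. Without the first and the second RE library *Actg2* was at -3.042 and -2.836, and *Myl9* at -3.387 and -2.615. *Tpm1* was then at -1.093 and -1.218. *Cnn2* was lost without the first RE library (-1.272), and *Cnn1* without the first or the second M library (2.747 and 2.599). Without an RE library *Cnn1* did not reach the minimum coverage and was not tested.

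After 4 days without TGFβ1 part of the set stood above its E levels, *Acta2* and *Actg2* after a rise in M cells and *Cnn1* without one. In E vs. RE, 3 of the 10 were called higher and 0 lower by limma, where 5.92% of all genes were called higher, 3.15% lower and 9.07% either way. At an unadjusted p below 0.05, 7 were higher and 0 lower, a looser cut for which the share of all genes is not given here. The median log2 fold change was 0.85 for the 10 and 0.00 for all genes. *Acta2* was 8.37-fold higher in RE than in E (log2 fold change 2.94, SE 0.35, adjusted p = 0.00173 by limma). *Cnn1* was 10.4-fold higher (2.80, SE 0.32, adjusted p = 0.00149 by limma), and *Actg2* was at least 7.73-fold higher (fitted 2.33, SE 0.35, adjusted p = 0.00392 by limma). Since *Cnn1* entered the test only through the group in which it is high, its calls here and in M vs. RE are a description of these libraries. With no filter its adjusted p by limma was 0.00233 in E vs. RE. The main fit takes the spread from all 6 libraries. In a fit of the E and RE libraries alone, *Acta2* (SE 0.42, adjusted p = 0.0117 by limma) and *Actg2* (adjusted p = 0.0194) were not called. *Cnn1* was called there (adjusted p = 0.00728), and the log2 fold changes were the same.

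*Myl9* was 4.47-fold higher in RE than in E but was not called (log2 fold change 1.64, SE 0.41, adjusted p = 0.024 by limma), and neither were *Cald1* at 1.87-fold (0.93, adjusted p = 0.0139) and *Tagln* at 1.73-fold (0.77, adjusted p = 0.0303). *Tpm2* was 1.35-fold higher (adjusted p = 0.104). *Cnn2* and *Tpm1* were at 1.14-fold (adjusted p = 0.26) and 0.946-fold (adjusted p = 0.656) of E. In 8 of the 10 both RE libraries were above both E libraries, as were 33.7% of all genes, and the exceptions, *Tpm1* and *Myh11*, were lower in both RE libraries, as were 33.3% of all genes. Without the first or the second RE library the calls were lost, in this set and nearly throughout all genes. The log2 fold changes were then 2.915 and 2.986 for *Acta2* and 2.234 and 2.438 for *Actg2*, and *Cnn1* was not tested. The call of *Actg2* was also lost without the first or the second M library (2.348 and 2.341). Without the second E library the log2 fold changes of *Cald1* and *Myl9* were 1.22 and 2.06.

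Across the 3 comparisons the genes showed several patterns of calls, which no test separates from each other. *Acta2* and *Actg2* were called higher in M than E, lower in RE than M and higher in RE than E, a course that 0.338% of all genes took, and 2.3% were called higher in both M and RE than in E. *Cnn1* was called higher in RE than in both other groups and not in E vs. M, as were 1.76% of all genes. *Cnn2*, *Myl9* and *Tpm1* were called up and then down with no call in E vs. RE, although *Myl9* in RE was still 4.47-fold its E mean. *Cald1* and *Tagln* were called in E vs. M and in no other comparison. *Tpm2* and *Myh11* were called in none, as were 76.1% of all genes, and 8 of the 10 in at least 1, against 23.9%. *Cnn1* is among the 8, and its calls and pattern only describe these libraries, because it entered the test through RE alone. The change left in RE cells, as a share of the E to M change on the log2 scale, was 0.677 for *Tagln*, 0.577 for *Cald1*, 0.449 for *Tpm2*, 0.441 for *Actg2*, 0.407 for *Acta2*, 0.352 for *Myl9*, 0.131 for *Cnn2* and -0.0751 for *Tpm1*. The comparisons share libraries, and these shares carry no test. With 1 ppm added before taking logs the share was 0.235 for *Actg2* and 0.205 for *Myl9*, and it was 0.27 for *Tpm2* without the second E library and 0.0731 for *Cnn2* without the first. For *Tpm1* it ran from -0.205 with scaling by library totals only to -0.00126 without the first RE library.

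Levels between genes were compared per length, in mean ppm per kb of the longest transcript in a newer annotation than that of the authors. In E cells *Tpm1* (137), *Cald1* (79.6), *Cnn2* (51.3) and *Tpm2* (40.8 ppm per kb) stood far above *Tagln* (1.41) and the other 5, which ranged from 0.0297 for *Actg2* to 0.231 for *Acta2*, each overlapping its neighbour in the order. In M cells the same 4 led, from 290 for *Tpm1* to 80.7 for *Tpm2*, and *Acta2* followed at 38.6, ahead of *Myl9* (5.31), *Actg2* (3.84) and *Tagln* (3.19). *Actg2* and *Tagln* overlapped there. In RE cells *Cald1* (149) was above *Tpm1* (129), and *Cnn2* (58.7) and *Tpm2* (55.0) followed. *Tagln* (2.45) and *Acta2* (1.94) came next, and *Cnn1* (0.723), *Myl9* (0.594) and *Actg2* (0.431) followed, with *Myl9* overlapping both of its neighbours. *Myh11* was last in M and RE cells (0.0637 and 0.0427).

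The genes differed in how much of their own families they made up. *Acta2* made up 0.021% of the actin coverage per kb in E, 2.27% in M and 0.211% in RE cells, and β-actin (*Actb*) between 95.2% and 97.0% of the group means. Unique mapping may have split or removed coverage of genes with near-identical copies, actins among them, so the shares are approximate. *Tagln* made up 0.601%, 0.753% and 1.71% of the transgelins, whose main form in each group was *Tagln2*. Among calponins *Cnn2* rose from 52.1% in E to 62.2% in M and stood at 46.7% in RE, where *Cnn3* made up 52.7% and *Cnn1* 0.576%. *Tpm1* held 63.2%, 62.7% and 58.4% of the tropomyosins and *Tpm2* 18.8%, 17.5% and 24.9%. *Myh11* was at most 0.0225% of the myosin heavy chains. There *Myh9*, a non-muscle form, went from 56.8% to 90.0% and 82.2%, and *Myh14*, the non-muscle form common in epithelia, from 35.3% to 1.46% and 10.5%.

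**Figure D3:**
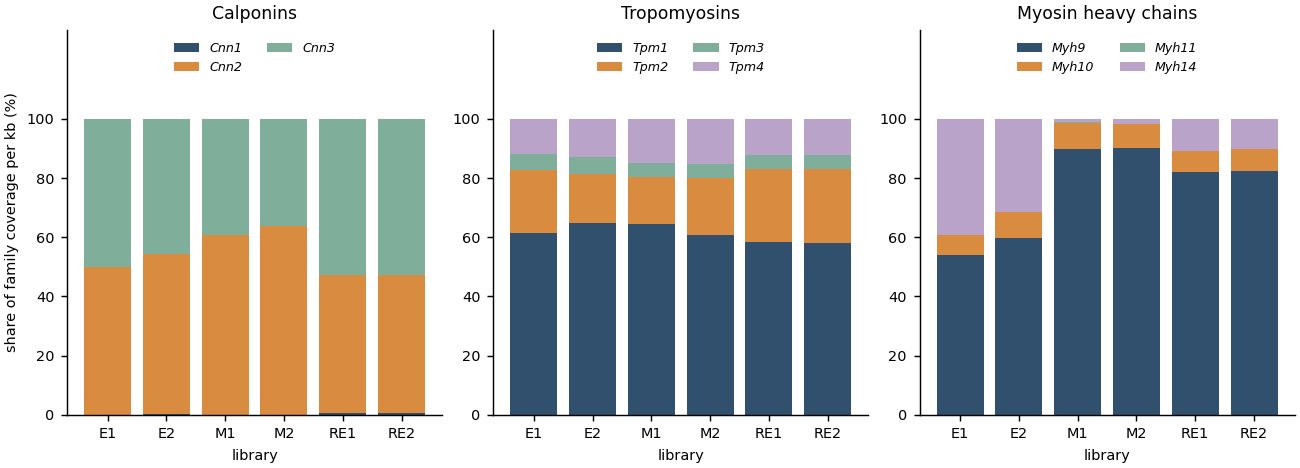
Share (%) of each family's coverage per kb taken by each of its genes in each of the 6 libraries, for calponins, tropomyosins and myosin heavy chains. *Myh14* shrinks from 35.3% of the mean in E to 1.46% in M, and *Cnn1* and *Myh11* are too small to see.

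The broadly expressed paralogs of these genes were taken from a list. Of 15 listed, 12 were tested, and 2 were called higher and 1 lower in E vs. M by limma, with a median log2 fold change of 0.84. In M vs. RE 1 was called higher and 4 lower. *Acta1*, skeletal α-actin, moved with the smooth muscle actins, at 0.533 and 0.644 ppm in E, 12.8 and 12.2 ppm in M, and 1.03 and 0.847 ppm in RE cells. Its RE libraries lay close above E, and its log2 fold change was 4.20 in E vs. M (SE 0.23, adjusted p = 3.05e-05 by limma), -3.61 in M vs. RE and, for E vs. RE, 0.59 (adjusted p = 0.0883). *Tpm4* rose by 1.37 in M and fell by 1.36 in RE cells. *Myh14* fell by 4.43 in M cells (adjusted p = 2.87e-05 by limma) and rose by 2.52 in RE cells, and it was still lower than in E by limma, at -1.92 (adjusted p = 0.00194). That last call was lost without the first or the second RE library, where calls fell over all genes. The log2 fold changes were then -1.942 and -1.862.

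*Cnn3* (0.89), *Tpm3* (0.87), *Tagln2* (0.84) and *Actb* (0.60 on the log2 scale) were past the p but not the fold threshold in E vs. M, except *Actb*, whose adjusted p was 0.0191 by limma. *Myl6* (0.75), *Actc1* (1.33), *Myh9* (0.84) and *Myh10* (0.29) were not called, nor was *Actg1* at -0.37. *Tagln3* was too low to test, and *Myl12a* and *Myl12b* were not analysed here. In M vs. RE *Tagln2* fell by 1.57 (adjusted p = 0.000288 by limma), where *Tagln* itself was not called.

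*Srf*, which encodes the factor that binds the CArG box, was called in no comparison. It measured 87.0 and 106 ppm in E, 103 and 112 ppm in M, and 96.0 and 104 ppm in RE cells, with a change of 0.16 on the log2 scale in E vs. M (SE 0.14, adjusted p = 0.383 by limma). *Myocd*, the smooth muscle coactivator of SRF, was at or under the floor in each group. Of 14 listed SRF and MRTF regulators, 11 were tested, and 4 were called higher and 1 lower in E vs. M, with a median log2 fold change of 1.12. In M vs. RE 1 was called higher and 1 lower. *Mkl1*, the coactivator MRTF-A, rose by 1.44 (SE 0.24, adjusted p = 0.00355 by limma), from 85.9 and 150 ppm in E to 299 and 318 ppm in M. It stood at 150 and 169 ppm in RE.

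The LIM-domain genes *Csrp2* (2.29), *Csrp1* (1.52) and *Fhl2* (1.44 on the log2 scale) also rose in M cells. *Csrp1*, a partner of SRF in smooth muscle, measured 46.2 and 52.1 ppm in E, 145 and 136 ppm in M, and 111 and 114 ppm in RE cells and was still called higher in RE than in E (1.20, adjusted p = 0.00116 by limma). *Csrp2* returned to below its E level, at 7.99 and 7.86 ppm in RE against 11.9 and 10.8 ppm in E. *Klf4*, a repressor of smooth muscle genes, went the other way, at 115 and 144 ppm in E, 17.8 and 19.98 ppm in M, and 138 and 145 ppm in RE cells. M stood alone. By limma, the log2 fold change was -2.76 in E vs. M (adjusted p = 3.08e-05) and 2.90 in M vs. RE (adjusted p = 2.89e-05). The *Mkl1* call was lost without the first or the second M library (log2 fold change 1.498 and 1.412) or RE library (1.445 and 1.444). The *Csrp1* call in E vs. RE was lost without the first or the second RE library (1.238 and 1.187). Calls over all genes fell in these fits too.

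Further smooth muscle genes moved in both directions. Of 20 listed, 17 were tested, and 4 were called higher and 2 lower in E vs. M by limma, with a median log2 fold change of 0.73. In M vs. RE 3 were called higher and 3 lower, 6 in all, which became 3 without the first or the second M library and 2 without the first RE library. *Ldb3*, a Z-disc and dense-body protein, rose by 2.94 (0.633 and 0.810 ppm in E, 5.60 and 6.76 ppm in M) and was back at 0.734 and 0.762 ppm in RE cells. *Palld*, the actin-bundling palladin, rose by 2.02 to 380 and 427 ppm in M. *Kcnmb1*, the smooth muscle subunit of a calcium-activated potassium channel, was listed at 0 in both E libraries and was at least 4.36-fold higher in M, through which alone it passed the filter. *Pgm5*, an adherens junction protein of muscle, was at least 25.2-fold lower in M than in E, and *Smtnl2* fell by 3.18. *Kcnmb1* was not called without the first E library (adjusted p 0.0112 by limma) or without the first or the second RE library (0.0177 and 0.017), nor *Pgm5* without the first M library (0.0106). In all, 3 of the list were called in E vs. M without the first M library and 12 without the second E library.

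*Mylk*, a myosin light chain kinase, which phosphorylates the *Myl9* product, was picked out of this list after its values were seen. Coverage per gene cannot separate the transcript forms of *Mylk*, nor those of *Cald1*. *Mylk* measured 6.79 and 8.67 ppm in E, 8.87 and 12.1 ppm in M, and 96.3 and 77.6 ppm in RE cells. Like *Cnn1* it was high in both RE libraries alone. Its log2 fold change was 0.43 in E vs. M (SE 0.21, adjusted p = 0.148 by limma). It was 3.05 in M vs. RE (adjusted p = 8.85e-05 by limma) and, for E vs. RE, 3.48 (adjusted p = 0.00029). The last call was lost without the first RE library, where the log2 fold change was 3.339 and calls fell over all genes.

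Stress fibre and focal adhesion genes, whose products anchor contractile filaments at the membrane, were also higher in M cells where called. All 15 were tested, and 7 were called higher and 0 lower in E vs. M by limma, with a median log2 fold change of 0.98. At an unadjusted p below 0.05, 12 were higher and 0 lower, again without the share of all genes at that looser cut. *Vcl*, vinculin, measured 88.8 and 137 ppm in E, 593 and 648 ppm in M, and 399 and 385 ppm in RE cells. *Pdlim5*, a LIM protein of actin bundles, measured 76.7 and 73.2 ppm, 262 and 271 ppm, and 248 and 223 ppm. Both stayed well above E in RE cells, with log2 fold changes in E vs. RE of 1.83 (adjusted p = 0.0014 by limma) and 1.65 (adjusted p = 0.000458). *Zyx* (2.11), *Flna* (1.60) and *Actn1* (1.43) rose in M and were not called in E vs. RE.

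Without the first or the second RE library neither *Vcl* (log2 fold change 1.825 and 1.871) nor *Pdlim5* (1.588 and 1.744) was called in E vs. RE. In E vs. M *Flna* (1.623 and 1.604) and *Actn1* (1.476 and 1.416) were among the calls lost without the first or the second M library. *Flna* was also lost there without the first or the second RE library (1.604 and 1.602). In M vs. RE 3 were called lower, and most of these calls were lost without an RE library or without the second M library. Calls over all genes fell in these fits as well.

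**Figure D4:**
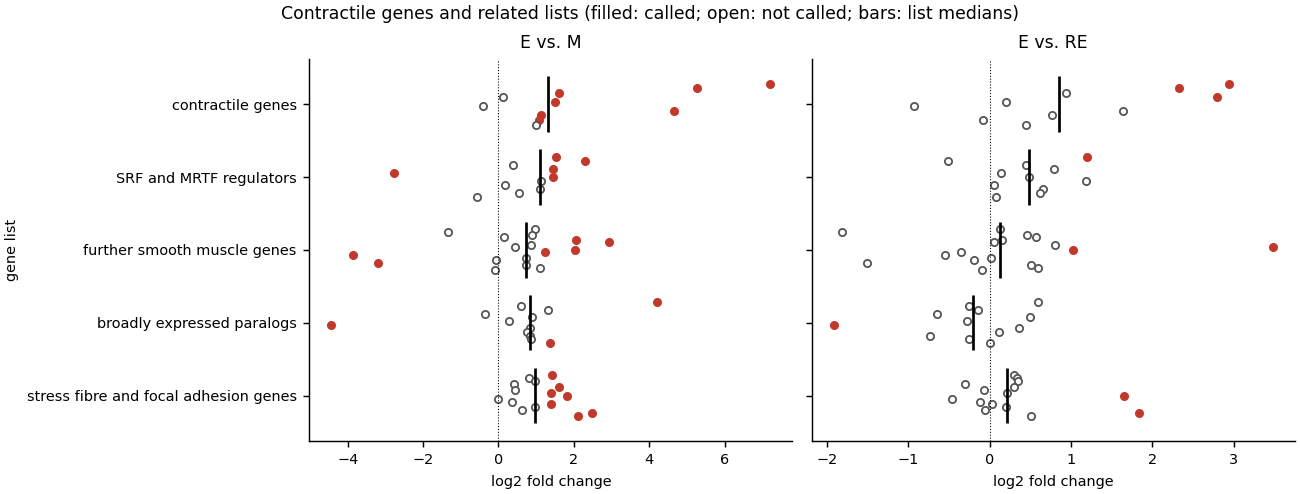
Log2 fold changes in E vs. M and E vs. RE of the contractile genes and of 4 related lists. Each point is a gene that was tested, filled where called, and bars are list medians. In E vs. M the median of the contractile genes is 1.32 and those of the lists run from 0.73 to 1.12.

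The labelled cell type was checked on marker lists. The luminal epithelial list summed to between 1153 and 1396 ppm in E, 1141 and 1182 ppm in M, and 693 and 738 ppm in RE cells. *Cdh1* (E-cadherin, 241 to 331 ppm across the 6 libraries), *Krt8* (122 to 322 ppm) and *Krt18* (270 to 882 ppm) carried the sum. *Krt19* and *Pgr* were too low to test, *Elf5*, *Prlr* and *Foxa1* were at most 2.88 ppm, and *Epcam* was not analysed here. Of its 7 genes tested, 1 was called higher, *Elf5* (4.18, near the floor in E), and 0 lower in E vs. M by limma. Over all genes, 16.7% were called either way in E vs. M and 9.07% in E vs. RE. In E vs. RE 1 was called higher, *Prlr* (2.82), and 1 lower, *Krt18* (-1.35). *Esr1* measured 8.58 and 17.0 ppm in E, 4.78 and 4.60 ppm in M, and 25.4 and 22.4 ppm in RE cells. It was called higher in M vs. RE only. The myoepithelial list, whose cells carry the contractile set in the gland, summed to between 360 and 425 ppm in E, 750 and 860 ppm in M, and 676 and 730 ppm in RE cells. Of its 9 genes tested, 2 were called higher (*Krt14* and *Krt17*) and 1 lower (*Mme*) in E vs. M by limma. In E vs. RE 3 were called higher (*Trp63*, *Mme* and *Mylk*) and 1 lower (*Lgr6*). *Krt5*, *Cdh3* and *Jag2* were called in no comparison. *Krt14* carried the sum in M cells, with 657 and 754 ppm. *Oxtr* was near 0 and *Krt5* below 0.5 ppm in each library. *Trp63* measured 59.2 and 82.8 ppm in E, 44.0 and 54.8 ppm in M, and 173 and 158 ppm in RE cells. *Mylk*, which is on this list too, and *Mme* were also highest in RE. *Mme* measured 21.9 and 17.9 ppm in E, 1.11 and 0.605 ppm in M, and 126 and 92.9 ppm in RE cells. *Lgr6* was lowest in RE, at 14.8 and 17.7 ppm in E, 32.2 and 32.2 ppm in M, and 5.25 and 5.16 ppm in RE cells.

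The vascular smooth muscle and pericyte list summed to between 137 and 197 ppm in E, 741 and 750 ppm in M, and 795 and 910 ppm in RE cells, of which *Pdgfrb* and *Mcam* made up most in M and RE. Of its genes, *Myocd* and *Abcc9* were at or near 0 in every library, and *Des*, *Cspg4*, *Lmod1* and *Rgs5* were below 1 ppm. *Rgs5* measured 0 and 0.0264 ppm in E, 0.810 and 0.420 ppm in M, and 0.260 and 0.411 ppm in RE cells. It passed the filter through its M and RE libraries alone and was called higher in M than in E, at least 8.27-fold. The fibroblast list summed to between 107 and 116 ppm in E, 599 and 693 ppm in M, and 437 and 500 ppm in RE cells, led by *Col1a1* in M and RE and by *Prrx1* in E cells, with *Thy1* and *Fap* at or near 0. By limma, 3 genes of the vascular list were called higher and 1 lower in E vs. M, and 3 of the fibroblast list higher and 2 lower, *Notch3* (-3.71), *Dcn* (-2.25) and *Prrx1* (-1.09) being lower in M cells. In E vs. RE 5 of the 7 fibroblast genes tested were called higher and 0 lower, where 5.92% of all genes were called higher. At an unadjusted p below 0.05, 6 were higher and 0 lower, and the share of all genes at that looser cut is not given here. The part of these lists in the changes of the contractile genes was not tested.

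Within the set, the log2 values of *Acta2* over the 6 libraries ran closest to those of *Actg2* (Pearson r 0.999), *Myl9* (0.991) and *Cald1* (0.972), and had r of -0.06 with *Cnn1* and -0.22 with *Myh11*. Outside the set, among 10091 genes with a mean log2 value of at least 2, the 5 most like *Acta2* were *St5* (r 0.999), *OTTMUSG00000008561* (0.998), *Furin* (0.997), *Appl1* (0.997) and *Fam101b* (0.997). *Fam101b*, a regulator of actin and filamin, measured 5.98 and 6.77 ppm in E, 48.5 and 52.3 ppm in M, and 14.2 and 14.4 ppm in RE cells. The 6 libraries are 3 groups of 2, so these coefficients describe the group pattern and carry no test.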

How the data were processed

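RNA from 2 biological replicates each of E, M and RE cells was sequenced. The authors mapped unique reads to mouse build NCBI-m37 with Bowtie and TopHat2 and deposited 1 table for 17428 genes, whose values were read here as coverage (signal), bases summed per gene without normalization. Between 44.8% and 48.4% of its values from 1 to 400 are multiples of 50, which was therefore taken here as the read length. The counting step, annotation and strand setting are not given in the sources used here, and the authors' edgeR results were not used. Overlapping or near-identical genes may share coverage.

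In R 4.3.3, coverage was scaled by TMM (30% of log ratios and 5% of levels trimmed) to ppm, and genes under 500 bases in more than 4 libraries were dropped. The model was fitted in limma 3.58.1 on log2(ppm + 0.1) over all 6 libraries, with a trend and Benjamini-Hochberg adjustment over 13893 genes. Fold changes on this scale understate those of low genes. Positive means higher in the second-named group. The floor was 3 reads' worth per library. An exact permutation test of 2 against 2 libraries cannot go below p = 0.333. In a test on simulated data the fit recovered 146 of 200 genes given a log2 change of 2, with 1 false call. The simulation gave each gene the same spread in all 6 libraries and changed no low genes. It therefore does not cover the wider spread of E cells or the low genes of the set. Depth covers counting error only. Transcript lengths are from GENCODE M21 and promoters from RefSeq.

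The genes, lists and tests were chosen with earlier results of these data known. Genes were named by a rule: all 10 contractile genes, up to 5 called genes a list with the largest E vs. M change, family members and the 5 genes most like *Acta2*. Some items under this rule are not reported here. Replicate numbers were not used to pair the libraries in the main fit. Each fit was repeated under other thresholds, scalings, filters, added constants, samples and weights, with a replicate block, and without each library.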

Additional observations from a re-analysis of the deposited data

How the results depend on the processing

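Counts of calls and fold changes were recomputed under 17 alternatives, or 14 or 16 for low genes that did not pass the filter in each, and the shares left in RE cells likewise. Levels per length, family shares, list medians and correlations were not. *Acta2*, *Actg2*, *Cnn2* and *Myl9* in E vs. M and *Acta2* in M vs. RE were called wherever they were tested. Of the values for single contractile genes, 444 kept direction and side of the threshold, 40 lost the call, 6 gained it and 2 changed sign. The sign changes were both *Cnn1* in E vs. M, never called, at -0.056 with scaling by library totals only and -0.13 without the first E library, where leaving out each library gave -0.13 to 0.35. Without 1 library, 4 to 8 members were called higher in E vs. M, 0 to 1 higher and 1 to 5 lower in M vs. RE, and 0 to 5 higher in E vs. RE. With the minimum in every library, which left *Actg2*, *Cnn1*, *Myl9* and *Myh11* untested, 0 were higher and 3 lower in M vs. RE and 1 higher in E vs. RE. The fit of only the groups compared, whose spread comes from the E and RE libraries alone, called 1 higher in E vs. RE. That was *Cnn1*, and *Acta2* and *Actg2* lost their calls at unchanged log2 fold changes. For the lists, 168 counts stayed within 1.5 times and 36 did not, and 65 values of named list genes lost their call while 655 kept their side of the threshold.

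Scaling by library totals only shifted the median change over all genes to -0.29 (E vs. M), 0.18 (M vs. RE) and -0.082 (E vs. RE) on the log2 scale. The share of calls that were higher went from 48.8% to 30.5% (E vs. M) and from 63.7% to 73.8% (M vs. RE). *Tagln* (0.87) and *Tpm1* (0.81 and -0.97) then missed the fold threshold. *Tagln* was called in E vs. M in 8 of 17 alternatives. Over all genes, the fit of only the groups compared called 317 higher and 141 lower in E vs. RE, against 822 and 438. Without 1 library, 429 to 1826 were higher and 478 to 1497 lower (E vs. M), 398 to 1431 and 204 to 876 (M vs. RE), and 9 to 1558 and 0 to 744 (E vs. RE).

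Whether libraries with the same replicate number were prepared together is not stated in the sources used here. Same-numbered deviations correlated at 0.267 (E and M), 0.058 (E and RE) and 0.116 (M and RE). With the replicate block the same numbers of contractile genes were called, 7, 6 and 3. Depth limits *Myh11*, *Cnn1* and the E levels of *Acta2*, *Actg2* and *Myl9*, which rest on few reads.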
